A study of Mus musculus with 11 samples.

Results

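The 10 genes described here encode ligands and receptors by which dendritic cells (DCs) costimulate or restrain T cells. They are Cd80, Cd86, Icosl, Cd274 and Pdcd1lg2 of the B7 family, Tnfsf4, Tnfsf9 and Cd70 of the tumour necrosis factor (TNF) ligand superfamily, the TNF receptor family gene Cd40, and Cd83. They were taken from a list of names and make up 10 of the 19938 genes measured, with the brightest of a gene's probe sets, by mean, standing for it. All 10 were measured and tested, with no filter on low values. Expression was measured on 11 microarrays of classical DCs (cDCs) sorted from mouse spleen, all on the C57BL/6 background and all carrying floxed Zeb2. The groups were CD172a+ cDCs of Zeb2 fl/fl mice with a CD11c-Cre transgene, labelled Zeb2-deficient (4 arrays), CD24+ cDCs of Zeb2 fl/fl mice without Cre (3 arrays) and CD172a+ cDCs of Zeb2 fl/fl mice without Cre (4 arrays). Both Cre-free groups are called controls. The ages of the mice, and whether each array held cells of 1 or of several mice, are not known from the labels. CD11c-Cre deletes floxed genes in cells that express CD11c, which include DCs and other leukocytes, and only 1 group carried it, so effects of the transgene and of Zeb2 loss cannot be told apart.

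A naive T cell needs a signal through its antigen receptor and a second, costimulatory one. CD80 and CD86 give the second signal through CD28 and are bound more tightly by the inhibitory receptor CTLA-4, ICOSL engages ICOS, and the TNF ligands OX40L (Tnfsf4), 4-1BBL (Tnfsf9) and CD70 engage OX40, 4-1BB and CD27. PD-L1 (Cd274) and PD-L2 (Pdcd1lg2) bind the inhibitory receptor PD-1. CD40 receives help from T cells that carry CD40 ligand, and CD83 keeps CD86 and MHC class II on the DC surface by opposing their ubiquitination. In spleen, CD24+ cDCs correspond to the cDC1 subset, known for cross-presentation to CD8+ T cells, and CD172a+ cDCs to cDC2, known for presentation to CD4+ T cells.

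Values are log2 expression values made by robust multi-array averaging (RMA), which compresses differences near background. The median of all genes lay near 5.5 in every group (5.54 in CD172a+ cDCs labelled Zeb2-deficient, 5.49 in CD24+ cDCs and 5.52 in control CD172a+ cDCs). Zeb2, read as a check of the labels, was 8.52, 8.32, 9.07 and 9.24 in the arrays labelled Zeb2-deficient, against 8.23, 8.23, 8.26 and 8.61 in control CD172a+ cDCs. It was therefore not lower in the arrays so labelled. The labels do not say where the Zeb2 probes lie relative to the deleted part, and every direction stated for that group rests on its label. Markers fitted the sort: of 9 cDC1 markers, 8 were higher and 0 lower in CD24+ than in control CD172a+ cDCs, and of 8 cDC2 markers, 0 were higher and 7 lower, a list that holds Sirpa, which encodes the sorted protein CD172a. The 11 arrays also fell into 2 sets that cross all groups. The first set held replicates 1 and 2 of both CD172a+ groups and replicate 1 of CD24+ cDCs, the second the other arrays, and the split was found from the values and not from a label. Immediate-early genes induced by tissue dissociation had a mean level over 19 genes of 9.95 to 10.48 in the first set and 9.17 to 9.60 in the second.

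The clearest result was that both PD-1 ligand genes were lower in CD24+ than in control CD172a+ cDCs, by 3.98-fold for Cd274 and 3.04-fold for Pdcd1lg2. None of the 10 genes differed with an adjusted p below 0.05 between CD172a+ cDCs labelled Zeb2-deficient and control CD172a+ cDCs. Cd80, Cd86, Tnfsf4 and Cd83 differed between the array sets by more than 2-fold. Over all arrays, each of these 4 differed less between groups than between the sets. For Tnfsf4, CD24+ minus control CD172a+ cDCs was -1.14 without passing (adjusted p = 0.465 in limma), against 1.53 between the sets. Within the second set that Tnfsf4 difference was -1.84. Cd40 was nearly constant, between 8.02 and 8.32 on all 11 arrays. Its range of 0.295 compares with a median range of 0.704 over all genes, and 4.30% of genes had a smaller one, whereas the ranges of the other 9 genes, 1.17 to 3.25, exceeded those of 80.5% to 99.0% of genes.

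**Figure D1:**
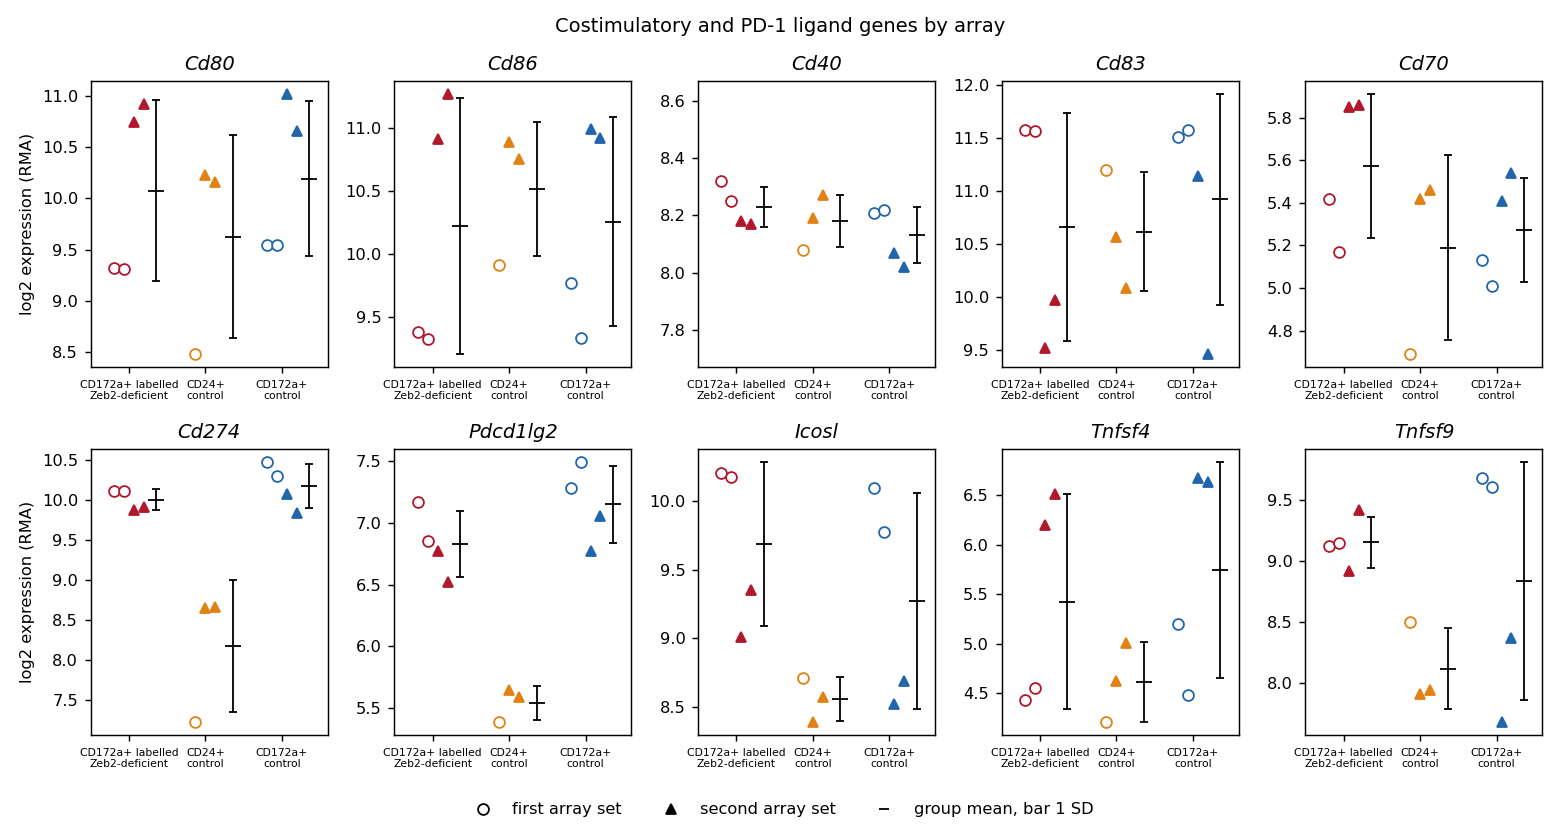
Log2 expression (RMA, vertical axis, scaled separately for each gene) of the 10 genes on each array, by group. Open circles are arrays of the first set, filled triangles those of the second, and the black bars show the group mean and 1 SD. For Cd274 and Pdcd1lg2 all 3 CD24+ arrays lie below all 8 CD172a+ arrays, while Cd80, Cd86 and Tnfsf4 separate by array set within each group.

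Cd274 and Pdcd1lg2 are next to each other on chromosome 19 of the GRCm38.p6 assembly. Their RefSeq promoter windows, 250 bases before to 50 after the start, are shown because these neighbours were lower together in CD24+ cDCs. The windows are chr19:29367188-29367487 for Cd274 and chr19:29410669-29410968 for Pdcd1lg2, both on the plus strand. Capitals mark matches on either strand to any of 6 motifs: the interferon-stimulated response element (GAAA, any 2 bases, GAAA), the gamma-activated site of STAT factors (TTCNNNGAA), the AP-1 site (TGANTCA), the PU.1 core (GAGGAA), the composite ETS and IRF element (GGAA, any 2 bases, GAAA) and the NF-kB site.
Cd274: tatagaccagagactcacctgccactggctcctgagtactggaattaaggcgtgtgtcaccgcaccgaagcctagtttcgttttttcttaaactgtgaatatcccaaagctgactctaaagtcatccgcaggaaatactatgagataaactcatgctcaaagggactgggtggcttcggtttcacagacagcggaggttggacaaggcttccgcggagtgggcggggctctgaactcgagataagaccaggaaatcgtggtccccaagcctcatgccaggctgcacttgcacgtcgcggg
Pdcd1lg2: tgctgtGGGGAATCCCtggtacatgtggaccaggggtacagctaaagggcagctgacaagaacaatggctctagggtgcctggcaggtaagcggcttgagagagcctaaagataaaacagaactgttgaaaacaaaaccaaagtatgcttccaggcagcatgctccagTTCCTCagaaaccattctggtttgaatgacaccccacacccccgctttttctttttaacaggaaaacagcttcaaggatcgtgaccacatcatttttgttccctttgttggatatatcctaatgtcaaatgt
The Cd274 window held none of the 6 motifs. The Pdcd1lg2 window held an NF-kB match, GGGGAATCCC, beginning 244 bases before the start and read on both strands, and a PU.1 core on the minus strand beginning 82 bases before the start. The motifs did not overlap in either window. Over the 32851 promoter windows of the table, 8.46% held an NF-kB match, 28.3% a PU.1 core, 3.44% an interferon-stimulated response element, 8.30% a gamma-activated site, 7.81% an AP-1 site and 2.72% a composite element. The Cd274 window was 52.7% G or C with 15 CpG dinucleotides, against 46% and 3 in the Pdcd1lg2 window, and the medians over all windows were 52.7% and 7. The table gave windows for 4 of the 10 genes.

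Cd274, which encodes PD-L1, read 10.12, 10.12, 9.88 and 9.92 in CD172a+ cDCs labelled Zeb2-deficient, 7.23, 8.65 and 8.67 in CD24+ cDCs, and 10.48, 10.31, 10.08 and 9.84 in control CD172a+ cDCs. The CD24+ arrays lay below every CD172a+ array, while the CD172a+ groups overlapped. The means were 8.18 ± 0.83 in CD24+ cDCs (SD, n = 3) and 10.18 ± 0.28 in control CD172a+ cDCs (SD, n = 4), a difference of -1.99 (SE 0.306, adjusted p = 0.00199 in limma). Against the same CD24+ arrays, CD172a+ cDCs labelled Zeb2-deficient, with a mean of 10.01 ± 0.13 (SD, n = 4), were higher by 1.82 or 3.54-fold (adjusted p = 0.0035). One CD24+ array set part of the size: without CD24+ replicate 1, at 7.23, the difference of CD24+ from control CD172a+ cDCs was -1.52 and still passed. Within the first array set it was -3.17 and within the second -1.30, a gap of 1.87. No p is given for this gap, since the first set holds only that 1 CD24+ array and the sets were found from the same values.

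Pdcd1lg2, which encodes PD-L2, the PD-1 ligand of narrower distribution among leukocytes, read 7.17, 6.85, 6.77 and 6.52 in CD172a+ cDCs labelled Zeb2-deficient, 5.39, 5.65 and 5.59 in CD24+ cDCs, and 7.28, 7.49, 6.77 and 7.05 in control CD172a+ cDCs. Again the CD24+ arrays lay below all others. The CD24+ mean of 5.54 ± 0.14 (SD, n = 3) was just above the median of all genes, so the fold is not an exact ratio. It differed from the control CD172a+ mean of 7.15 ± 0.31 (SD, n = 4) by -1.60 (SE 0.184, adjusted p = 0.000261), and the mean in CD172a+ cDCs labelled Zeb2-deficient, 6.83 ± 0.27 (SD, n = 4), was 2.44-fold above that of CD24+ cDCs (adjusted p = 0.00116). CD24+ minus control CD172a+ cDCs came to -1.997 among first-set arrays and -1.29 among second-set arrays. Of the genes beside this pair on the chromosome, Plgrkt, a plasminogen receptor gene, differed by -0.39 (adjusted p = 0.39) and Ric1 by -0.48 (adjusted p = 0.618).

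Of the 3 B7 genes with costimulatory roles, 0 passed between the control subsets when group was the only factor, and Cd80 passed once the array set was added. Here and below, fits that block on the array set treat the sets as given, although they were found from the same values. Cd80 read 9.32, 9.31, 10.75 and 10.92 in CD172a+ cDCs labelled Zeb2-deficient, 8.48, 10.23 and 10.16 in CD24+ cDCs, and 9.55, 9.55, 11.02 and 10.66 in control CD172a+ cDCs. Within each set, every CD24+ array was below every CD172a+ array. Over all arrays CD24+ cDCs differed from control CD172a+ cDCs by -0.57 (adjusted p = 0.78). Blocking on the array set gave -0.82, a 1.76-fold lower level (SE 0.116, against 0.574 over all arrays, adjusted p = 0.000372). CD172a+ cDCs labelled Zeb2-deficient were above CD24+ cDCs by 0.45 over all arrays (adjusted p = 0.769) and by 0.70 with the block (adjusted p = 0.0011). Neither difference passed in limma with the replicate number blocked instead. CD24+ minus control CD172a+ cDCs was then -0.35 (adjusted p = 0.665), and the labelled group minus CD24+ cDCs was 0.23 (adjusted p = 0.758). Here and below, that block joins CD24+ replicate 2, of the second set, to CD172a+ replicates 2, of the first. Part of the set difference therefore enters its comparisons with CD24+ cDCs, and it cannot serve as a check on them. Leaving out CD24+ replicate 1 put the difference of CD24+ from control CD172a+ cDCs over all arrays at 0.0047. That leaves only second-set CD24+ arrays against control CD172a+ arrays of both sets. Within the second set alone the difference was -0.64 (adjusted p = 0.0514 in limma). A second Cd80 probe set, not used for the gene's value, read 8.03 to 11.01 in CD172a+ cDCs labelled Zeb2-deficient, 6.60 to 10.03 in CD24+ cDCs and 8.38 to 10.76 in control CD172a+ cDCs, with the lower values in the first set as well.

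Cd86 read 9.38, 9.32, 10.91 and 11.27 in CD172a+ cDCs labelled Zeb2-deficient, 9.91, 10.89 and 10.75 in CD24+ cDCs, and 9.77, 9.33, 10.99 and 10.92 in control CD172a+ cDCs. The 3 groups overlapped in each comparison. CD24+ cDCs differed from control CD172a+ cDCs by 0.26 (adjusted p = 0.922), and by 0.03 after blocking on the array set, with a 95% interval of -0.34 to 0.39. Unlike Cd80, which is on the same chromosome, Cd86 gave differences of opposite sign within the sets, 0.36 in the first and -0.14 in the second. Marchf1, the ubiquitin ligase that removes CD86 and MHC class II from the DC surface, had a mean of 7.27 ± 0.47 among CD24+ arrays (SD, n = 3) and 7.11 ± 0.40 in control CD172a+ cDCs (SD, n = 4, limma adjusted p = 0.922).

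Icosl read 10.21, 10.18, 9.01 and 9.35 in CD172a+ cDCs labelled Zeb2-deficient, 8.71, 8.39 and 8.57 in CD24+ cDCs, and 10.10, 9.78, 8.52 and 8.69 in control CD172a+ cDCs. Every array labelled Zeb2-deficient was above every CD24+ array, and within each set also above every control CD172a+ array. The difference of the labelled group from CD24+ cDCs was 1.13 or 2.19-fold (adjusted p = 0.149), and 0.98 after blocking on the array set (adjusted p = 0.00353). Blocking on the replicate number, which mixes the sets as described for Cd80, gave 1.28 (adjusted p = 0.0119). Its difference from control CD172a+ cDCs was 0.41 (adjusted p = 0.998), against an adjusted p of 0.51 once the array set was blocked. CD24+ cDCs differed from control CD172a+ cDCs by -0.72 (adjusted p = 0.474), -1.24 within the first set and -0.12 within the second. B cells also express Icosl. B cell markers had summed levels over 12 genes of 981 to 1577 in CD172a+ cDCs labelled Zeb2-deficient, 474 to 636 in CD24+ cDCs and 744 to 1303 in control CD172a+ cDCs, on the linear scale. Among them Cd79a, a subunit of the B cell receptor, averaged 3.38, 3.11 and 3.31 in these groups, well below the median of all genes. RMA gives no level of 0. Ms4a1, which encodes CD20, averaged 8.22, 6.55 and 6.20, with an adjusted p of 0.135 between the CD172a+ groups, and 0.00201 once the array set was blocked. Of the 12 markers 5 were higher and 0 lower in the labelled group than in CD24+ cDCs, with a median of 0.75. Over all genes 3.25% passed as higher. With the array set blocked 6 were higher and 1 lower, where 7.52% of all genes passed as higher. Against control CD172a+ cDCs the block gave 2 higher and 0 lower, where 18 of all 19938 genes passed as higher. With group only, 1 was higher and 0 lower than in control CD172a+ cDCs, where 8 of all genes passed as higher. That 1 was Fcer2a, which encodes CD23, at 6.48 ± 0.21 in the labelled group and 4.43 ± 0.06 in control CD172a+ cDCs (SD, n = 4 each, limma adjusted p = 4.74e-05). The part of B cell RNA in the Icosl values was not tested.

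Of the TNF ligand genes, Tnfsf4 followed the array set most closely, Tnfsf9 varied least in the group labelled Zeb2-deficient, and Cd70 was near the median of all genes. Tnfsf4, which encodes OX40L, a ligand known from type 2 helper responses, read 4.43, 4.55, 6.20 and 6.52 in CD172a+ cDCs labelled Zeb2-deficient, 4.21, 4.62 and 5.01 in CD24+ cDCs, and 5.20, 4.48, 6.68 and 6.64 in control CD172a+ cDCs. The second-set CD172a+ arrays stood above all others. CD24+ cDCs differed from control CD172a+ cDCs by -1.14 (adjusted p = 0.465), and by -1.39 after blocking on the array set (adjusted p = 0.00202). The differences were -0.63 within the first set, where all means lay below the median of all genes, and -1.84 within the second. All 3 CD24+ arrays were below that median, so no fold is given. CD172a+ cDCs labelled Zeb2-deficient were above CD24+ cDCs by 0.81 (adjusted p = 0.582) and by 1.07 with the block (adjusted p = 0.00992). With the replicate number blocked instead, which mixes the sets as described for Cd80, neither Tnfsf4 difference passed in limma. CD24+ minus control CD172a+ cDCs was then -0.81 (adjusted p = 0.118), and the labelled group minus CD24+ cDCs was 0.48 (adjusted p = 0.368).

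Tnfsf9, which encodes 4-1BBL, a ligand that supports CD8+ T cell responses, read 9.12, 9.15, 8.92 and 9.42 in CD172a+ cDCs labelled Zeb2-deficient, 8.50, 7.91 and 7.94 in CD24+ cDCs, and 9.68, 9.61, 7.68 and 8.37 in control CD172a+ cDCs. The arrays labelled Zeb2-deficient lay below both control CD172a+ arrays of the first set and above both of the second. Their difference from control CD172a+ cDCs was -0.51 within the first set and 1.15 within the second, a gap of 1.66 given without a p. Over all arrays the difference was 0.32 (adjusted p = 0.998). Against CD24+ cDCs the labelled group did not overlap and was higher by 1.04 or 2.05-fold, without passing the test over all arrays (adjusted p = 0.212) or with the array set blocked (adjusted p = 0.0581). It passed with only those groups in the limma fit (adjusted p = 0.0146) and within the second set (1.25, adjusted p = 0.0319). Within the first set, which holds 1 CD24+ array, the difference was 0.63. CD24+ cDCs differed from control CD172a+ cDCs by -0.72 (adjusted p = 0.499).

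Cd70 read 5.42, 5.17, 5.85 and 5.86 in CD172a+ cDCs labelled Zeb2-deficient, 4.69, 5.42 and 5.46 in CD24+ cDCs, and 5.13, 5.01, 5.41 and 5.54 in control CD172a+ cDCs. All groups overlapped, at levels where RMA compresses differences. With the array set as a block the labelled group was above CD24+ cDCs by 0.48 or 1.39-fold (adjusted p = 0.00589), against 0.39 over all arrays (adjusted p = 0.444), and above control CD172a+ cDCs by 0.30 (adjusted p = 0.313 with the block). Blocking on the replicate number in limma, which mixes the sets as described for Cd80, put the labelled group above CD24+ cDCs by 0.29 (adjusted p = 0.369). Tnfsf9, Cd70 and Tnfsf14 follow one another on chromosome 17. Tnfsf14, which encodes the T cell costimulatory ligand LIGHT, averaged 7.04 ± 0.28 in CD172a+ cDCs labelled Zeb2-deficient (SD, n = 4), 5.72 ± 0.10 in CD24+ cDCs (SD, n = 3) and 6.93 ± 0.47 in control CD172a+ cDCs (SD, n = 4). It was 2.32-fold lower in CD24+ than in control CD172a+ cDCs (adjusted p = 0.00907 in limma), while its neighbours Tnfsf9 and Cd70 did not pass.

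Cd40 and Cd83 did not pass in any comparison, over all arrays or with the array set blocked. Cd40 read 8.32, 8.25, 8.18 and 8.17 in CD172a+ cDCs labelled Zeb2-deficient, 8.08, 8.19 and 8.27 in CD24+ cDCs, and 8.21, 8.22, 8.07 and 8.02 in control CD172a+ cDCs. The groups overlapped within a span of less than 1.3-fold. The 95% intervals were -0.09 to 0.28 for the labelled group minus control CD172a+ cDCs, -0.15 to 0.25 for CD24+ minus control CD172a+ cDCs and -0.15 to 0.25 for the labelled group minus CD24+ cDCs, the narrowest of the 10 genes. Cd83 read 11.58, 11.57, 9.52 and 9.97 in CD172a+ cDCs labelled Zeb2-deficient, 11.20, 10.57 and 10.08 in CD24+ cDCs, and 11.51, 11.58, 11.14 and 9.46 in control CD172a+ cDCs. Second-set arrays were lower in every group, with control CD172a+ replicate 3, at 11.14, closest to the first set.

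CD172a+ cDCs labelled Zeb2-deficient were compared with control CD172a+ cDCs to ask which genes depend on Zeb2 in this subset. Of the 10 genes 0 passed, where 0.0502% of all genes tested passed, and all 10 had an adjusted p of 0.998. In limma 0 of them had an unadjusted p below 0.05, the smallest being 0.0868 for Pdcd1lg2 (-0.32). By exact two-sided permutation of the array labels the smallest p was 0.171, for Cd70, where 70 assignments allow 0.0286. In 0 of the 10 did the groups fail to overlap, which 2.10% of all genes did. The differences were positive for 4 and negative for 6, with a median of -0.08 against 0.006 over all genes. The intervals show what the data leave possible. With the array set as a block, 95% intervals were -0.35 to 0.11 for Cd80, -0.37 to 0.30 for Cd86, -0.75 to 0.41 for Cd274 and -0.91 to 0.39 for Cd83. Those of Pdcd1lg2 (-0.63 to -0.01), Icosl (0.03 to 0.80) and Cd70 (0.10 to 0.51) did not include 0, but the adjusted p of these 3 genes was 0.52, 0.51 and 0.313, and 0 of the 10 genes passed with the block, where 0.145% of all genes did. Blocking on the replicate number over the 8 CD172a+ arrays also left 0.

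Between the control subsets, CD24+ against CD172a+, 2 of the 10 genes passed, both lower in CD24+ cDCs, where 3.16% of all genes passed as lower. The same 2 were the only ones of the 10 whose groups did not overlap, with CD24+ lower, as for 7.43% of all genes. Their exact permutation p of 0.0571 is the smallest that 3 against 4 arrays allow. The median of the 10 differences was -0.64 against -0.02 over all genes, and 8 of the 10 were negative. With the array set as a block 4 passed, all lower in CD24+ cDCs (Cd274, Pdcd1lg2, Cd80 and Tnfsf4), where 6.90% of all genes passed as lower. In bulk arrays fewer cells that express a gene and less RNA per cell cannot be told apart.

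CD172a+ cDCs labelled Zeb2-deficient were also set against control CD24+ cDCs, a comparison that shares its arrays with both others. Here 2 of the 10 passed, Cd274 and Pdcd1lg2, both higher in the labelled group, where 3.25% of all genes passed as higher. Groups did not overlap for 4, those 2 with Icosl and Tnfsf9, all with the labelled group higher, as for 8.90% of all genes. With the array set as a block 6 passed as higher, the added ones being Cd80, Cd70, Icosl and Tnfsf4, where 7.52% of all genes passed as higher. The median difference was 0.63 against 0.03 over all genes.

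**Figure D2:**
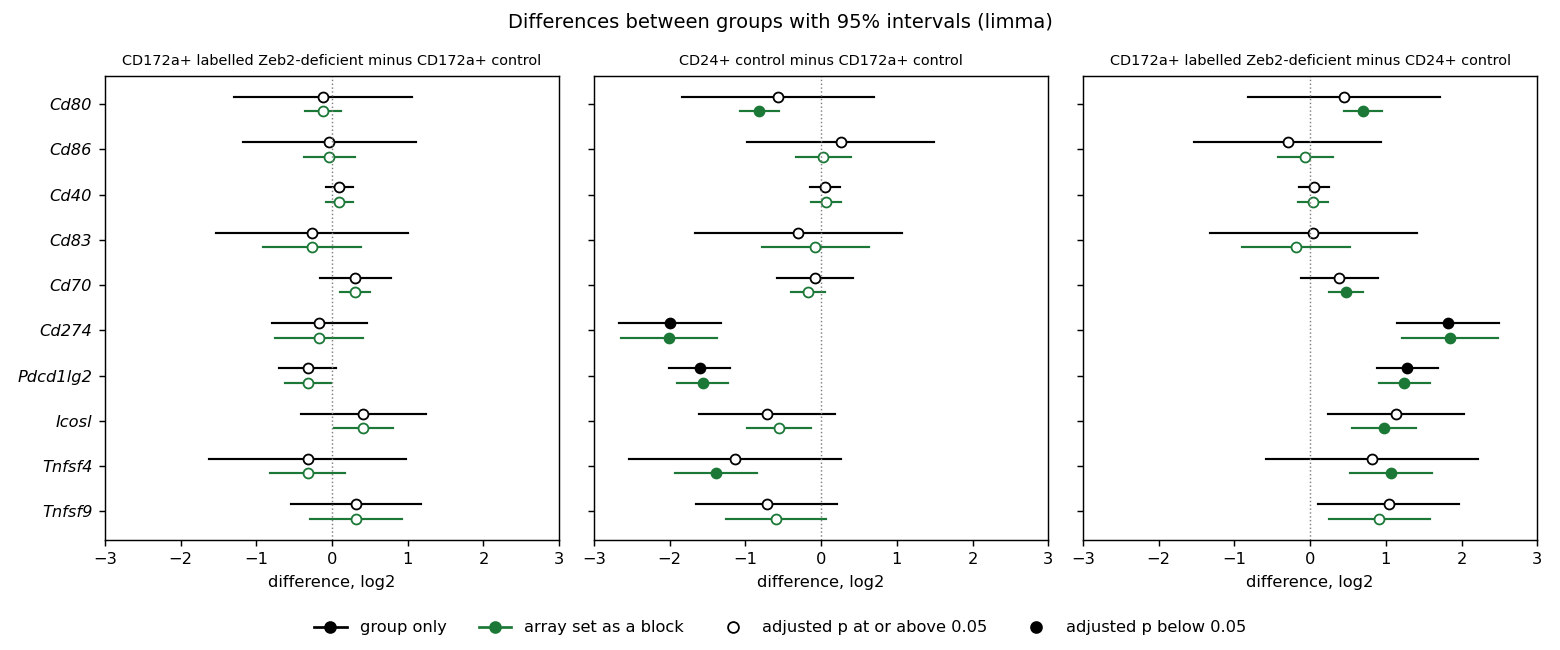
Differences in log2 expression for the 10 genes in the 3 comparisons, with 95% intervals from limma, for the fit on group only (black) and with the array set blocked (green). Filled points have an adjusted p below 0.05. In the left panel 0 of the points are filled, and in the middle panel Cd274 (-1.99) and Pdcd1lg2 (-1.60) are filled in both fits.

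The spread within groups followed the array sets. With group in the model, the second set was above the first by 1.49 for Cd80, 1.41 for Cd86, 1.54 for Tnfsf4 and 0.55 for Cd70, and below it by 1.38 for Cd83, 0.94 for Icosl and 0.74 for Tnfsf9. The median over all genes was 0.04, and 2.88% of genes differed by at least 1 in either direction, against 4 of these 10. Because the sets were found from the same values, these are descriptions with no test, and fits that block on the sets treat them as if they had been given. Cd274, Pdcd1lg2 and Cd40 differed by 0.11, -0.26 and -0.07. For Cd274 the small figure hides opposite changes, since the second set minus the first was -0.22 in CD172a+ cDCs labelled Zeb2-deficient, 1.43 in CD24+ cDCs and -0.43 in control CD172a+ cDCs. Tnfsf9 differed by 0.04 in the labelled group, -0.58 in CD24+ cDCs and -1.62 in control CD172a+ cDCs. Monocyte and macrophage markers moved with the sets too, with a mean level over 13 genes of 6.18 to 6.56 in the first set and 6.68 to 7.60 in the second. The part of dissociation or of other cells in these values was not tested.

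**Figure D3:**
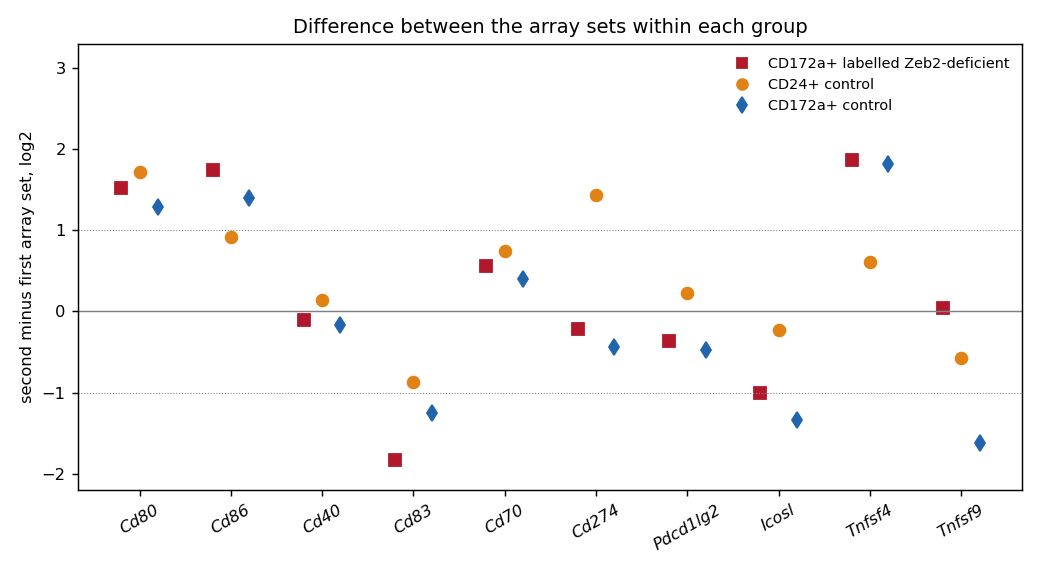
Difference in mean log2 expression between the second and the first array set within each group, for the 10 genes, with dotted lines at 1 and -1. Cd80 and Cd86 lie above 0 and Cd83 below 0 in all 3 groups, while Cd274 is at 1.43 in CD24+ cDCs and below 0 in both CD172a+ groups.

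Related genes were counted in the same fits. Of all 19938 genes, 648 passed as higher and 630 as lower in CD24+ than in control CD172a+ cDCs. Of 13 other TNF superfamily ligands, 0 were higher and 2 lower in CD24+ than in control CD172a+ cDCs, with a median of -0.22. Besides Tnfsf14 the lower one was Tnfsf8, which encodes CD30 ligand, at 5.46 ± 0.32 in CD24+ cDCs (SD, n = 3) and 6.72 ± 0.25 in control CD172a+ cDCs (SD, n = 4), a 2.39-fold difference (adjusted p = 0.00295 in limma). Of the same 13 ligands 3 were higher and 0 lower in CD172a+ cDCs labelled Zeb2-deficient than in CD24+ cDCs. Over all genes 3.25% passed as higher in that comparison. Among the 3 was Ltb, which encodes lymphotoxin beta. It averaged 9.01 ± 1.31 in the labelled group (SD, n = 4) and 6.34 ± 0.44 in CD24+ cDCs (SD, n = 3), a 6.37-fold higher level (limma adjusted p = 0.0475). Of 8 other B7 and butyrophilin genes, 0 were higher and 1 lower in CD24+ cDCs, namely Btn2a2, an inhibitor of T cell activation, by 0.43 at a level below the median of all genes.

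The genes for CD40 and NF-kB signalling, the pathway through which CD40 and microbial sensors raise costimulatory genes, were lower in CD24+ than in control CD172a+ cDCs for 4 of 17 and higher for 0, with a median of -0.36. Over all genes 3.16% passed as lower. With the array set blocked 6 of the 17 were lower and 0 higher, where 6.90% of all genes passed as lower. Immediate-early genes of dissociation had the same sign, with 18 of 19 lying lower in CD24+ cDCs, a median of -0.38, and 1 passing as lower, or 5 with the array set blocked. Their part in the NF-kB values was not tested. The 4 NF-kB genes lower with group only included Traf1, an adaptor of TNF receptors (1.66-fold, adjusted p = 0.00822 in limma). The others were the inhibitors or modulators of NF-kB Tnfaip3 (1.86-fold), Nfkbiz (2.24-fold) and Nfkbie (1.66-fold). The NF-kB subunits Rel and Relb differed by -0.41 (adjusted p = 0.24) and -0.78 (adjusted p = 0.297). The maturation list went the other way, with 3 of 18 genes higher and 0 lower in CD24+ cDCs and a median of 0.62, where 648 of all 19938 genes passed as higher. With the array set blocked 10 were higher and 0 lower, where 1705 of all genes passed as higher. The mean level over the list was 7.61 on the lone first-set CD24+ array and 8.54 to 8.74 on the second-set ones, against 7.30 to 7.41 and 7.76 to 7.90 in control CD172a+ cDCs. The 3 genes higher with group only were Il15, a cytokine for memory T cells and NK cells (3.09-fold, adjusted p = 0.00576), and the chemokine genes Ccl22 (4.44-fold) and Ccl17 (1.62-fold). Of 14 genes of PD-L1 regulation and interferon response, 1 was higher and 0 lower, Irf1, a factor that acts downstream of interferon, at 8.02 ± 0.06 in CD24+ cDCs (SD, n = 3) and 7.33 ± 0.26 in control CD172a+ cDCs (SD, n = 4, limma adjusted p = 0.0367). Of these 14 genes 2 were higher and 0 lower in CD172a+ cDCs labelled Zeb2-deficient than in CD24+ cDCs. Over all genes 3.25% passed as higher in that comparison. Among the 2 was Jak2, a kinase of interferon-gamma signalling, 1.55-fold higher (adjusted p = 0.00484).

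Counter-receptors usually described on T cells were also read. Of 16, 3 were higher and 1 lower in CD24+ than in control CD172a+ cDCs, with a median of 0.09. Over all 19938 genes 648 passed as higher and 630 as lower. Btla, an inhibitory receptor that binds HVEM, had a mean of 9.48 ± 0.34 among CD24+ arrays (SD, n = 3) and 7.60 ± 0.27 in control CD172a+ cDCs (SD, n = 4), a 3.67-fold difference (limma adjusted p = 6.12e-05). Ctla4, the receptor that competes with CD28 for CD80 and CD86, was 4.13-fold higher and Cd226 2.45-fold higher, both from control means below the median of all genes, and Lag3, an inhibitory receptor for MHC class II, was 1.78-fold lower. Of 8 T cell markers 0 passed in this comparison, and 7 of the 8 averaged below the median of all genes in each group. Of 14 other ligands and adhesion molecules for T cells, 2 were higher in CD24+ cDCs, Sema4a (3.92-fold) and Cd24a, whose product was used to sort the cells, and 3 were lower, Ceacam1 (4.67-fold), Sema4d (2.85-fold) and Alcam (1.56-fold), which encodes the ligand of CD6. Of 4 regulators of surface CD86 and MHC class II, 0 passed. Between the labelled group and its CD172a+ controls, 0 genes of these 8 lists passed.

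**Figure D4:**
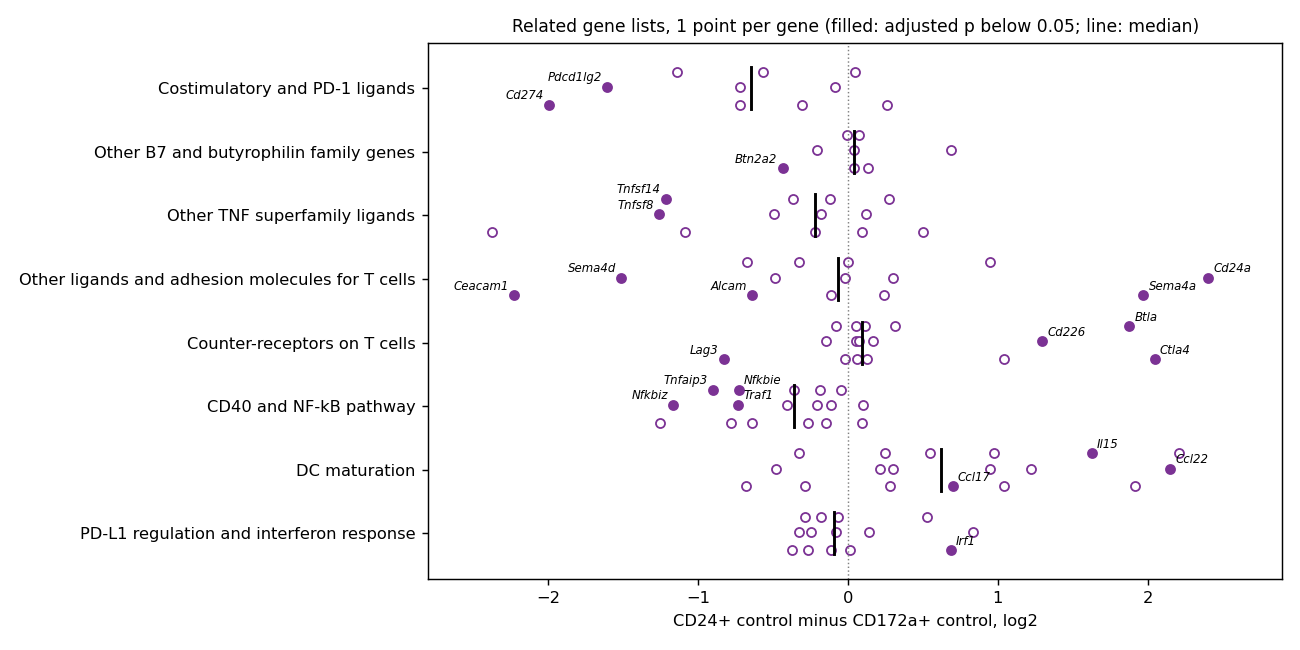
Difference in log2 expression between CD24+ and control CD172a+ cDCs (horizontal axis) for each gene of 8 groups, the 10 costimulatory and PD-1 ligand genes in the top row. Filled points have an adjusted p below 0.05 in limma and the black line is the median of the row. The NF-kB row has a median of -0.36 and the maturation row one of 0.62.

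The genes most like Cd274 and Pdcd1lg2 were found by the root mean square difference between profiles over the 11 arrays, each gene centred on its own mean. Nearest to Cd274 were Elk3, an ETS factor (0.229), Rras2, a small GTPase (0.252), and Ccrl2, a receptor that presents chemerin (0.253). Ccrl2 averaged 10.29 in CD172a+ cDCs labelled Zeb2-deficient, 8.31 in CD24+ cDCs and 10.46 in control CD172a+ cDCs. Nearest to Pdcd1lg2 were Abca9, an ABC transporter gene (0.143), Nxpe4 (0.163) and Pla2g4a, a phospholipase A2 that releases arachidonic acid (0.19). These are descriptions, and the arrays they rest on share the same groups and sets.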

How the data were processed

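The authors deposited a log2 value for each probe set, and the submitters' processing notes name RMA as the method. Its version, probe filters and the build are not given in the sources used here. Medians of the arrays lay between 5.45 and 5.52. Of 30177 probe sets, 21789 carried 1 gene symbol in the platform annotation, 1621 several and 6767 none. Each of 19938 genes took its one-symbol probe set with the highest mean, a choice for 999 genes and, of the 10 described, for Cd80. Promoter windows are from RefSeq, GRCm38.p6.

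Groups and replicate numbers came from the sample titles. The labels do not state separate animals for replicates, and p-values then measure only the spread between these arrays, which may be technical. No 2 arrays shared more than 5.20% of values. limma 3.58.1 in R 4.3.3 was fitted to all 11 arrays with group as the factor, two-sided, with Benjamini-Hochberg adjustment over all genes and a threshold of 0.05, leaving 8 residual degrees of freedom. The number of arrays limits the precision. The code was tested on simulated data. Exact permutation tests used scipy 1.17.1, and figures matplotlib 3.10.9 in Python 3.11.15.

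Genes named were the 10 members, then up to 6 genes per list and comparison with the smallest p past the threshold, chromosomal neighbours and partners, and the 3 nearest profiles of each member that passed. Neighbours that did not pass, Rel, Relb, Marchf1, Ms4a1, Cd79a and Fcer2a were added for context. The members, lists and array sets were chosen with earlier results of these data known. Same-numbered CD172a+ arrays of both genotypes deviated together (r from 0.442 to 0.68 in 4 pairs, all above 0.1), as did other-numbered pairs of the same set (0.496 to 0.699). No label states this pairing, and same-numbered CD24+ and control CD172a+ arrays gave -0.445 to 0.506.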

Additional observations from a re-analysis of the deposited data

Results flagged for a closer look

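An interaction term in limma listed Cd274 here, but that term gives no valid test of the sets. The Cd274 difference between CD24+ and control CD172a+ cDCs came to 1.87 when the first array set's value was subtracted from the second's. CD24+ was lower in both sets. For CD172a+ cDCs labelled Zeb2-deficient minus CD24+ cDCs the same subtraction gave -1.65, with the labelled group higher in both sets. No p is given, because the sets were found from these values and the lone CD24+ array was assumed to vary like the other arrays. Both rest on the same CD24+ replicate 1, the only CD24+ array of the first set, so they are not independent of each other. In the 20 groups of 4 arrays that were checked, 0 values stood apart from the rest of their group. The CD24+ groups of 3 arrays, which hold the lone first-set array, were not checked. Each group of 4 held 2 arrays of each set, so values that split by set could not stand apart singly.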

How the results depend on the processing

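Cd274 and Pdcd1lg2 kept their direction in both comparisons with CD24+ cDCs under every alternative run. They also kept their calls, leaving aside the first set with its 1 CD24+ array. The number of the 10 genes that passed between CD172a+ cDCs labelled Zeb2-deficient and control CD172a+ cDCs was 0 under every alternative. Between CD24+ and control CD172a+ cDCs it was 2, but 4 when blocked on the array set, 3 within the second set and 2 with any 1 array left out. Of all 19938 genes, 1375 passed as lower with that block and 726 within the second set. Between CD172a+ cDCs labelled Zeb2-deficient and CD24+ cDCs the number was 2, but 6 when blocked on the array set, 6 within the second set, 3 with only those groups in the fit and 2 with any 1 array left out. Of all genes, 1500 passed as higher with that block, 789 within the second set and 577 with only those groups. For comparisons with CD24+ cDCs no count is given within the first set, which holds 1 CD24+ array. With the replicate number as a block the 3 comparisons gave 0, 2 and 3, the added gene being Icosl, and no other call on these genes changed. In comparisons with CD24+ cDCs that block mixes the sets, as described for Cd80. Over all genes the 3 comparisons gave 10, 1278 and 1429 calls, against 29, 3080 and 3641 after blocking on the array set. Blocking on the replicate number over all 11 arrays gave 11, 1843 and 2049. The first comparison is that of the labelled group with control CD172a+ cDCs. The first gave 26 with the replicate block on 8 arrays, 5 with only its groups in the fit and 0 within the first set (2260 at an unadjusted p below 0.05). The causes were not tested.

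Signs turned only for genes that did not pass over all arrays, among them Cd80, which passed with the array set blocked. In the labelled group minus control CD172a+ cDCs these were Cd86 within the second set (0.13), and Cd83 (0.031) and Tnfsf9 (-0.51) within the first. With 1 array left out Cd80 ran from -0.40 to 0.16, Cd86 from -0.39 to 0.27, Cd83 from -0.75 to 0.12, Tnfsf4 from -0.74 to 0.0092 and Tnfsf9 from -0.069 to 0.60. In CD24+ minus control CD172a+ cDCs they were Cd40 with quantile normalization once more (-0.020) and within the first set (-0.13), Cd86 (-0.14) and Cd83 (0.029) within the second set, and Cd70 with the replicate block (0.0097). With 1 array left out Cd80 ran from -0.87 to 0.0047, Cd86 from -0.046 to 0.57 and Cd70 from -0.22 to 0.17. In the labelled group minus CD24+ cDCs they were Cd86 (0.27), Cd40 (-0.055) and Cd83 (-0.58) within the second set, Cd83 with the array set blocked (-0.19), and, with array medians set equal, Cd40 (-0.0015) and Cd83 (-0.0081). With 1 array left out Cd80 ran from -0.12 to 0.75, Cd86 from -0.65 to 0.0043 and Cd83 from -0.27 to 0.42.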
